A study of Mus musculus with 12 samples.

Results

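Sorted cells from the injection site of tumour-bearing mice were compared with sorted cells from the marrow of tumour-free mice. The series holds 12 RNA-seq libraries of C57BL/6 mouse bone marrow stem cells (BMSCs, genotype given as "wide type", read here as wild type) that carried green fluorescent protein (GFP), in 4 groups of 3, and 6 of the 12 libraries enter the comparison. In the group called TUMOR, GFP-marked cells had been injected together with cancer cells labelled RFP-LLC, read here as Lewis lung carcinoma cells marked with red fluorescent protein, and GFP cells were collected from the inoculation site. In the group called HOMING, the mice had received GFP-marked cells alone, under the skin, and GFP cells were collected from the marrow. The other two groups give levels only: NC, primary cultured cells, and BM, GFP cells from the marrow of co-injected mice. Cells of all groups were labelled as sorted. Lewis lung carcinoma is a transplantable mouse lung tumour line of the C57BL/6 background. The tissue sampled and the presence of tumour cells differ together between TUMOR and HOMING, so their parts in any difference cannot be told apart. The sorting gates, the purity of the sorted cells, the sex of the mice and of the injected cells, and whether the 3 libraries of a group came from separate animals are not given in the sources used here. The p-values therefore measure the spread between libraries, which may be technical.

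Bone marrow mesenchymal stromal cells support blood formation and make matrix, chemokines and growth factors. In tumours, stromal cells take part in matrix deposition, vessel growth and the recruitment of immune cells. Low oxygen stabilises hypoxia-inducible factors (HIF), which switch on genes for glycolysis, vessel growth and their own negative feedback; interferons and NF-kB drive antiviral and inflammatory genes.

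Expression was measured for 21001 genes as FPKM, fragments scaled to transcript length and library size, and in expected counts, which summed to 43232145 to 46166519 per library. Replicates of a group lay close together. Pearson's r of log2(FPKM + 1) across genes, which are not independent replicates, was 0.9934 to 0.9983 between TUMOR libraries, 0.9949 to 0.9979 between HOMING libraries and 0.8953 to 0.9319 between a TUMOR and a HOMING library. One library of each group stood apart in the genes that differed. Over all genes tested, TUMOR replicate 1 divided by the mean of TUMOR replicates 2 and 3 had a median of 0.996, but over the called genes that were higher in TUMOR and under 1 FPKM in NC it had a median of 1.61. HOMING replicate 3 divided by the mean of HOMING replicates 1 and 2 had a median of 0.998 over all genes tested and of 1.562 over the called genes that were lower in TUMOR and under 1 FPKM in NC.

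The labelled cell type was checked against markers. Of 18 stromal identity genes, 15 were measured above the filter, and their summed FPKM was 3715 to 3830 in TUMOR and 2820 to 2961 in HOMING. Vim (vimentin), which many cell types express, made up 1900.64 to 1949.53 FPKM of it in TUMOR and 1391.70 to 1474.37 in HOMING. The surface markers Thy1 (CD90), Nt5e (CD73) and Lepr were under 1 FPKM in each of the 6 libraries. Neutrophil markers summed to 2762 to 4113 FPKM in HOMING, 46.19 to 48.68 in TUMOR and 347.8 to 444.8 in NC. Lcn2 (lipocalin 2), which other cell types also express, was at 385 ± 50.7 FPKM in NC (SD, n = 3), and 16 of the 18 neutrophil genes tested were under 1 FPKM there. Red cell markers summed to 2108 to 3472 FPKM in HOMING and 1.97 to 3.38 in TUMOR, and monocyte and macrophage markers to 247.9 to 389.7 in HOMING and 25.97 to 26.6 in TUMOR. In BM, the other marrow group, neutrophil markers summed to 417.5 to 441.7 FPKM and red cell markers to 3.16 to 3.67. Monocyte and macrophage markers summed to 61.32 to 62.36 there. Ptprc (CD45), carried by nearly all white blood cells and picked after its values were seen, was at 5.94, 5.94 and 10.61 FPKM in HOMING and at 0.01, 0 and 0.01 in TUMOR. In bulk samples such as these, fewer cells of a type and less RNA per cell cannot be told apart.

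Transcripts of the Y chromosome separated the cultured cells from the cells taken from mice. The 4 Y-linked genes Ddx3y, Eif2s3y, Kdm5d and Uty, picked after their values were seen, had 0, 3 and 0 expected counts in all in the NC libraries. They had 361, 344 and 545 in HOMING, 304, 276 and 279 in BM, and 1463, 800 and 808 in TUMOR. Every library from mice was thus above every library of cultured cells, and TUMOR replicate 1 and HOMING replicate 3 were each the highest of their group. Eif2s3y, a translation initiation factor subunit, was at 1.89, 2.06 and 2.82 FPKM in HOMING and 7.75, 3.90 and 4.03 in TUMOR, and rose by 1.20 ± 0.26 (log2 fold change ± SE; edgeR adjusted p = 0.0016). Xist, the RNA that coats an inactive X chromosome, was at 0.01 to 0.05 FPKM in NC, HOMING and TUMOR and at 0.24, 0.23 and 0.22 in BM. The part of these differences in the results that follow was not tested.

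With edgeR's quasi-likelihood test over the 12314 genes that reached 1 FPKM in at least 3 of the 12 libraries, 1329 genes (10.8%) were called at an adjusted p under 0.05 and a change of at least 2-fold. Of these, 544 (4.42% of the genes tested) rose and 785 (6.37%) fell in TUMOR relative to HOMING, and the median log2 fold change of all genes tested was 0.0026. Counts of called genes in the lists below are to be set beside these shares of 4.42% and 6.37%. The shares differ with the level in cultured cells, as given below. A list that lies mostly in a single class of that level is to be set beside the shares of that class. Sizes of single rises and falls are given as log2 fold changes throughout. The 3 TUMOR and the 3 HOMING libraries did not overlap in FPKM for 1328 of the called genes, beside 66.9% of all genes tested. Without TUMOR replicate 1 the test called 1209 genes, 452 higher and 757 lower. Genes were then separated by their level in the cultured cells. Of the 11061 genes tested at a mean of 1 FPKM or more in NC, 4.93% were called: 287 (2.59%) rose and 258 (2.33%) fell. Of the 1253 genes tested under 1 FPKM in NC, 62.6% were called: 257 (20.5%) rose and 527 (42.1%) fell. Those 1253 were among 9918 such genes in the tables and passed the filter through the groups where they were high, so these shares are no measure of all genes silent in culture. Of 435 tested genes with no Entrez number, and so with no symbol, 21 (4.83%) rose and 38 (8.74%) fell. Large changes were mostly falls: a log2 fold change of -8 or less was called for 4 genes at or above 1 FPKM in NC and 168 genes under it, and the largest rises stayed under 8 in both classes.

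**Figure D1:**
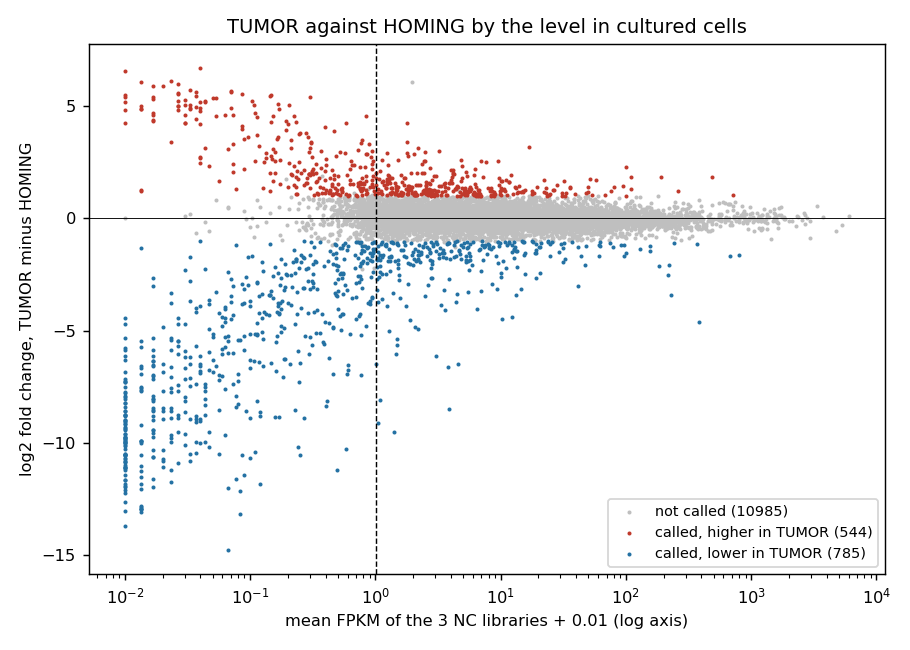
Log2 fold change of TUMOR against HOMING (vertical axis) for each of the 12314 genes tested, against the mean FPKM of the 3 NC libraries plus 0.01 (log axis); the dashed line marks 1 FPKM, and called genes are coloured by direction. Called falls of more than 8 lie almost wholly left of the line, with 168 genes there and 4 to the right of it.

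HIF targets were higher in TUMOR. Of 15 targets tested, 11 rose and none fell, with a median log2 fold change of 1.38 beside 0.0026 for all genes. Egln3, a prolyl hydroxylase that marks HIF for destruction and is itself a HIF target, was the only called gene at or above 1 FPKM in NC with a log2 fold change of 4 or more. It was at 7.73, 7.14 and 8.72 FPKM in HOMING and 215.07, 115.48 and 126.29 in TUMOR, a log2 fold change of 4.27 ± 0.22 (edgeR adjusted p = 8.63e-09). The groups were far apart, and TUMOR replicate 1 was the highest library. Adm, which encodes the vessel-active peptide adrenomedullin and was nearly silent in culture, was at 1.42, 1.54 and 1.62 FPKM in HOMING and 101.08, 50.98 and 56.09 in TUMOR (log2 fold change 5.50 ± 0.28, edgeR adjusted p = 7.43e-09).

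Other HIF targets rose to levels that were even across the TUMOR libraries. Ndrg1, a stress-induced growth regulator, was at 92.31, 88.78 and 86.13 FPKM in HOMING and 343.61, 301.79 and 308.92 in TUMOR, a rise of 1.83 ± 0.06 (edgeR adjusted p = 3.55e-10). Ero1a, an oxidase that forms disulphide bonds in the endoplasmic reticulum, rose from a mean of 44.6 ± 0.765 to 121 ± 5.43 FPKM (SD, n = 3 each). P4ha1, a collagen prolyl hydroxylase, rose from 25.8 ± 0.645 to 54.7 ± 1.84 FPKM (SD, n = 3 each), with a log2 fold change of 1.08 that was 0.97 when only its main transcript was used. The remaining 6 that rose were P4ha2, Bnip3, Ankrd37, Higd1a, Egln1 and Mxi1, of which Bnip3, a mitophagy receptor, went from 91.97, 89.41 and 86.88 FPKM to 248.38, 229.06 and 227.87. The 4 not called were Bnip3l (log2 fold change 0.89), Kdm3a (0.77), Vegfa (0.51) and Stc2 (-0.93). Vegfa, the main vessel growth factor, was at 58.97 to 59.39 FPKM in HOMING, 83.62 to 87.15 in TUMOR and a mean of 108 ± 4.41 in NC (SD, n = 3), so TUMOR lay above HOMING and below the cultured cells. Without TUMOR replicate 1, 10 of the 15 targets were called.

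Glucose handling moved in the same direction for some of its steps. Of 20 genes of glycolysis and glucose uptake tested, 5 rose and 1 fell, with a median log2 fold change of 0.66 (4 rose without TUMOR replicate 1). Slc16a3, the lactate exporter MCT4, was at 23.45, 21.25 and 28.80 FPKM in HOMING and 173.36, 93.45 and 104.71 in TUMOR, a rise of 2.31 ± 0.20 (edgeR adjusted p = 9.86e-07). Pfkp, a phosphofructokinase, was at 9.43, 8.63 and 9.24 FPKM in HOMING and 50.51, 34.83 and 36.57 in TUMOR. Pdk1, which keeps pyruvate out of the mitochondria, rose by 1.48 ± 0.07 and the glucose transporter Slc2a1 by 1.03 ± 0.07. The call of Slc2a1 was lost without TUMOR replicate 1, when its log2 fold change was 0.97, and without HOMING replicate 2, when it was 0.998. Eno1, an enolase, was the fifth gene that rose, and Slc2a3, another glucose transporter, fell by 1.10 ± 0.13. No gene of the list fell when HOMING replicate 3 was left out. Ldha, at 962.07, 940.92 and 944.27 FPKM in HOMING and 1575.25, 1478.66 and 1435.46 in TUMOR, and Pgk1 stayed under the 2-fold limit although their libraries did not overlap. None of 21 respiratory chain subunits tested was called; Ndufa4 was at 333.56 to 374.88 FPKM in HOMING and 317.22 to 361.66 in TUMOR, overlapping ranges.

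**Figure D2:**
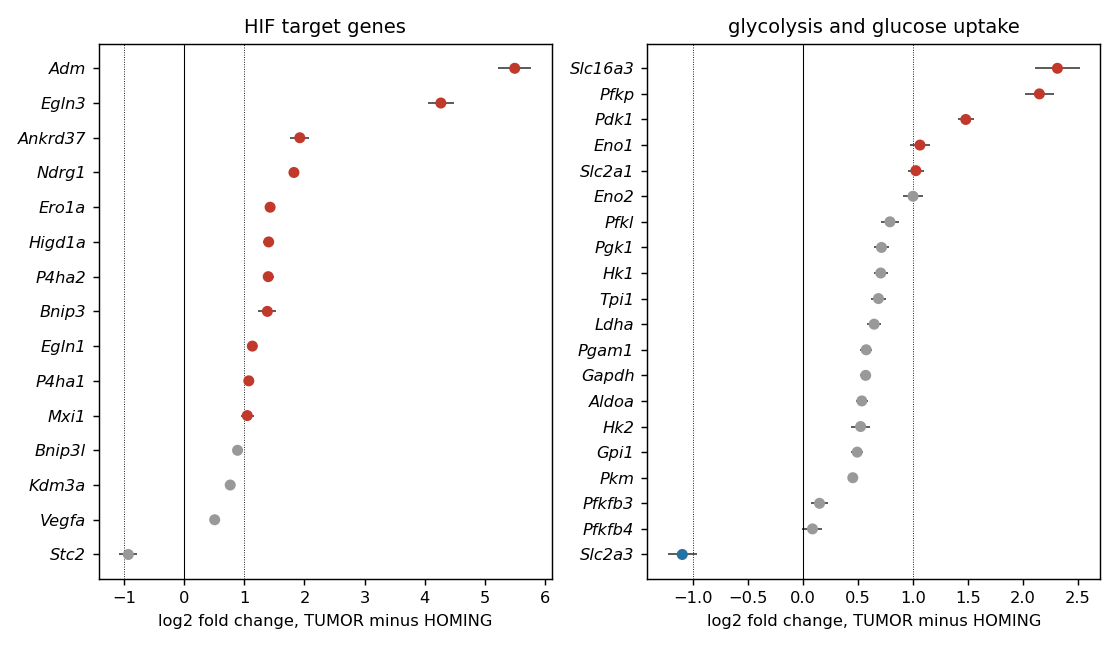
Log2 fold change of TUMOR against HOMING with its SE for the 15 HIF targets (left) and the 20 genes of glycolysis and glucose uptake (right); red genes rose, blue fell, grey were not called, and dotted lines mark the 2-fold limit. Adm at 5.50 and Egln3 at 4.27 lie far to the right of the other targets.

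The promoters of the genes that rose and fell were read for the core motifs of the factors that give these lists their names: ACGTG for HIF, and GAAA repeated after a gap of any 2 bases for the factors that act on interferon-stimulated genes. The reverse complements were searched as well. The 250 bases before each start site, first RefSeq entry per gene, build GRCm38.p6, were used. ACGTG was in 7 of the 10 called HIF targets with an entry (70.0%), in none of the 3 not called, in 22.29% of the 9512 genes tested that have an entry, and in 16.57% of all 27025 promoters searched. The repeated GAAA was in 9 of the 17 called interferon-stimulated genes with an entry (52.94%), in neither of the 2 not called, in 2.71% of the genes tested and in 3.04% of all promoters. In the glycolysis list ACGTG was in 2 of 5 called genes (40.0%) and in 5 of 14 not called (35.71%), among them Ldha with 5 matches. A match describes letters in the window and shows no binding. The HIF and interferon lists were made of named targets of these factors. A higher share than over all promoters therefore describes the lists and not TUMOR against HOMING. The 3 and 2 genes not called are too few to compare with the called ones. The 5 promoters below, each with matches in capitals and printed 5′ to 3′ on the gene's strand, belong to Egln3 (chr12:54203875-54204124, minus strand), Ankrd37 (chr8:45999851-46000100, minus), Slc16a3 (chr11:120948817-120949066, plus), Isg15 (chr4:156200819-156201068, minus) and Ifit3 (chr19:34583279-34583528, plus). Egln3 and Ankrd37 are of the HIF list and Slc16a3 of the glycolysis list; all of them rose and hold ACGTG. Isg15 and Ifit3 fell and hold the repeated GAAA, which in Isg15 matches 3 times in overlapping positions.
Egln3: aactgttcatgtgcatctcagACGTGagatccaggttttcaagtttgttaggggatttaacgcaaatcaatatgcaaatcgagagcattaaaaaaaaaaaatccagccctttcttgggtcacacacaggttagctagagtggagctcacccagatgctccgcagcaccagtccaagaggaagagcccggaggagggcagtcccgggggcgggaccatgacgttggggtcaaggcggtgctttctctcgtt
Ankrd37: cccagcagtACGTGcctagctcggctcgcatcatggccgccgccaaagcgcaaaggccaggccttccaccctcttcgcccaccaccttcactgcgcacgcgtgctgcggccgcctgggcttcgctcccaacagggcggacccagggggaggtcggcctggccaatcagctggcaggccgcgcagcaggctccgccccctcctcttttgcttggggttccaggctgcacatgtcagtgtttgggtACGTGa
Slc16a3: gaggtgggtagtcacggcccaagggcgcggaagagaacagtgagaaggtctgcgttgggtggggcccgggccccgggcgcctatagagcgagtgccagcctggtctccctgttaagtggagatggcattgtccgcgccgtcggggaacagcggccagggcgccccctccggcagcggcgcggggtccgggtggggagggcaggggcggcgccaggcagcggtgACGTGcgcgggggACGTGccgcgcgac
Isg15: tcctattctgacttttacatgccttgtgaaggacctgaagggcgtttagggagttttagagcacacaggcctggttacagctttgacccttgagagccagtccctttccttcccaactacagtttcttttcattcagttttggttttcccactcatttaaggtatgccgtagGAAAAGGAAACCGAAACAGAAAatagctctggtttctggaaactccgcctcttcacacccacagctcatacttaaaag
Ifit3: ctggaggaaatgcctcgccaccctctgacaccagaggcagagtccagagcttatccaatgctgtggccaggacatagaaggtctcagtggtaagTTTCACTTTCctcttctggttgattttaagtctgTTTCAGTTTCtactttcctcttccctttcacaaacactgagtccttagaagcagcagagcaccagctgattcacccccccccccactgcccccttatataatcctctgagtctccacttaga

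Matrix genes were divided, and over all genes tested 4.42% rose and 6.37% fell. Of the genes at 1 FPKM or more in NC, the class of all 15 collagens tested, 2.59% rose and 2.33% fell. Of 15 collagens tested 6 rose and 1 fell, with a median log2 fold change of 0.78, and 5 rose without TUMOR replicate 1. Col3a1, a fibrillar collagen, was at 18.63, 19.01 and 17.76 FPKM in HOMING and 55.12, 44.45 and 44.59 in TUMOR, a rise of 1.37 ± 0.11 (edgeR adjusted p = 3.34e-07). Col12a1 and Col18a1 rose by 1.24 and 1.54 on the log2 scale, and Col5a3 fell by 1.15. The main bone and skin collagen Col1a1 was at 168.3 to 192.95 FPKM in HOMING and 172.29 to 229.94 in TUMOR, overlapping ranges. Of 17 matrix glycoproteins and proteoglycans, 2 rose and 5 fell. Dcn (decorin), a collagen-binding proteoglycan, was at 192.06, 203.80 and 224.55 FPKM in HOMING and 52.44, 71.59 and 73.17 in TUMOR, while the collagen cross-linking enzyme Loxl2 rose by 1.91 and the hyaluronan synthase Has2 fell by 1.27. Of 19 matrix proteases and inhibitors 7 fell and none rose. Mmp13, a collagenase, was at 31.62, 31.55 and 46.91 FPKM in HOMING and 1.63, 1.80 and 1.61 in TUMOR. The neutrophil-associated Mmp9 and macrophage-associated Mmp12 fell by 4.77 and 6.30. Neutrophil and macrophage markers fell in the same libraries, and their part in these falls was not tested.

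Of 15 growth factors tested 2 rose, 2 fell and 11 were not called. Both shares were above the 4.42% and 6.37% of all genes tested. Pgf (placental growth factor), a ligand of a VEGF receptor, was at 0.62, 0.72 and 0.33 FPKM in HOMING and 10.19, 5.62 and 6.17 in TUMOR (log2 fold change 3.78 ± 0.30, edgeR adjusted p = 4.25e-07). Areg (amphiregulin) and Ereg (epiregulin), both ligands of the EGF receptor, went opposite ways: Areg rose by 3.13 ± 0.41, from 0.91 to 1.09 FPKM in HOMING to 6.85 to 11.91 in TUMOR, and Ereg fell by 1.80 ± 0.26, from 17.11 to 20.38 FPKM to 4.75 to 6.09. Vegfc, a lymphatic vessel growth factor, fell by 1.05 and was not called without TUMOR replicate 1, at -0.96. Sema3f, a guidance molecule, was at 1.45 to 1.54 FPKM in HOMING and 9.19 to 15.04 in TUMOR, a rise of 2.95. Among the stromal identity genes Eng (endoglin), a TGF-beta co-receptor, rose by 2.55, Alcam fell by 1.32, Vcam1 fell by 1.05, and 12 were not called. Without TUMOR replicate 1 the log2 fold change of Vcam1 was -0.93 and without HOMING replicate 3 it was -0.99, both short of a call. Ly6a (Sca-1) was at 61.15 to 68.10 FPKM in HOMING and 55.86 to 69.54 in TUMOR.

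A second class of rises concerned genes nearly silent in culture. Krt8, a keratin of simple epithelia, was at 0.0767 ± 0.0643 FPKM in NC (SD, n = 3), at 1.34, 1.15 and 1.64 in HOMING and at 93.78, 48.13 and 51.94 in TUMOR, a rise of 5.54 ± 0.28 (edgeR adjusted p = 7.43e-09). Its partner Krt18 was at 0.02 to 0.12 FPKM in the TUMOR libraries, and the epithelial adhesion genes Epcam and Cdh1 at 0.04 or less. Krt19, at 2.72 ± 1.26 FPKM in NC (SD, n = 3), rose by 2.23 with TUMOR libraries at 21.03, 21.32 and 22.41 FPKM, so that both epithelial markers tested of the 10 listed rose while the rest stayed under the filter. Their summed FPKM was 6.13 to 6.57 in HOMING and 70.09 to 115.2 in TUMOR. Tfap2a, an AP-2 transcription factor, and Wfdc2, a secreted protease inhibitor of epithelia, rose by 5.99 and 5.62. Tfap2a was at 0.06, 0.12 and 0.08 FPKM in HOMING and 7.87, 4.07 and 4.45 in TUMOR.

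Rhox and germline-associated genes of the X chromosome formed another block. Of 37 listed, 23 were in the tables and 5 passed the filter through the groups in which they were high. Those 5 rose, and of all genes tested under 1 FPKM in NC 20.5% rose. Rhox5, a homeobox gene of the reproductive tract that is also active in many tumour lines, was at 4.20, 3.82 and 4.60 FPKM in HOMING, 267.65, 143.55 and 142.60 in TUMOR, 0.133 ± 0.119 in NC and 43.6 ± 0.615 in BM (SD, n = 3). It rose by 5.44 ± 0.26 (edgeR adjusted p = 4.34e-09). Rhox2h, Rhox2d, Rhox2g and Xlr3c rose by 5.67, 5.35, 4.55 and 5.70; the Rhox2 genes and the Xlr3 genes are near-identical copies, so the split of reads among copies is uncertain. TUMOR replicate 1 divided by the mean of replicates 2 and 3 had a median of 1.869 over these 5 genes, beside 0.996 over all genes tested. In the 4 Y-linked genes the same ratio was 1.707 to 2.0. The ratio was not particular to this block. Its median was 1.648 over the 5 called HOX genes, 1.596 over the 3 called genes of the ribosomal list and 1.125 over the 11 called HIF targets. The part of the Y-linked differences in these rises was not tested. Peg3, an imprinted zinc finger gene, was the only one of 6 imprinted growth genes tested that was called, at 0.03 to 0.05 FPKM in HOMING and 1.13 to 2.21 in TUMOR.

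Among HOX genes, which record position along the body axis, the changes lay in one cluster. Of 25 listed HOX genes tested 5 rose and none fell, with a median log2 fold change of 0.23. Counting every HOX gene tested, 7 were of the HoxA, 8 of the HoxB, 8 of the HoxC and 5 of the HoxD cluster. The 5 HoxD genes rose, and no gene of the other clusters was called. The HoxD genes were under 1 FPKM in NC and passed the filter through TUMOR, BM or both. Of all genes tested under 1 FPKM in NC 20.5% rose. Hoxd8 was at 0.11, 0.20 and 0.22 FPKM in HOMING, 10.90, 6.51 and 7.44 in TUMOR, 0.0167 ± 0.0153 in NC and 1.28 ± 0.0551 in BM (SD, n = 3), a rise of 5.58 ± 0.29 (edgeR adjusted p = 9.09e-09). Hoxd10 rose by 5.90, Hoxd9 by 5.39 (0.09 to 0.23 FPKM in HOMING and 6.03 to 10.26 in TUMOR), Hoxd4 by 5.39 and Hoxd3 by 6.56. The HoxA, HoxB and HoxC genes spanned log2 fold changes of -0.75 to 0.33. The genes on either side of the HoxD cluster, Mtx2 and Lnpk, looked at after these values were seen, were not called, at -0.08 and 0.03.

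**Figure D3:**
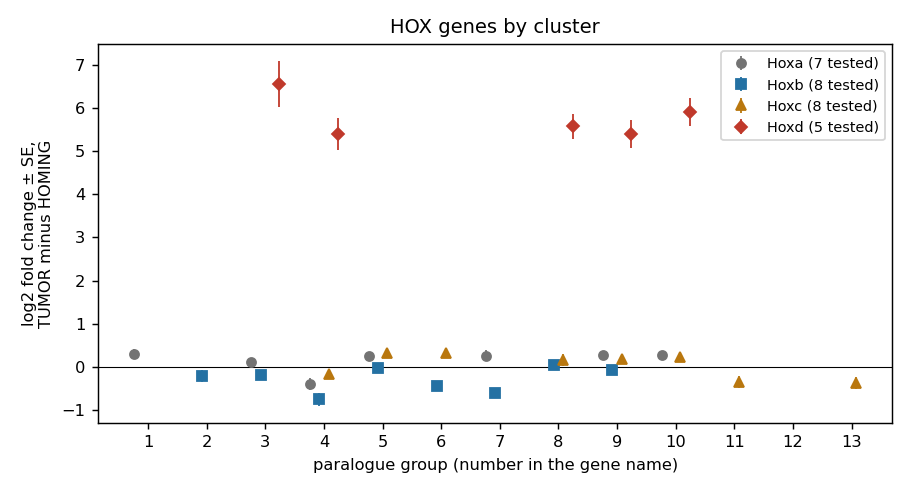
Log2 fold change of TUMOR against HOMING with its SE for each HOX gene tested, by paralogue group and cluster. The 5 HoxD genes lie between 5.39 and 6.56, and the other clusters lie between -0.75 and 0.33.

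Ribosomal protein genes were mostly not called. Of 21 in the list 3 rose, and of all 77 ribosomal protein genes tested 8 rose and 69 were not called. Over all genes tested 4.42% rose and 10.8% were called. Of those at 1 FPKM or more in NC, which hold all 21 of the list, 2.59% rose. Rpl29 was at 92.82, 90.95 and 110.60 FPKM in HOMING, 1267.00, 672.98 and 754.34 in TUMOR and 16.8 ± 0.303 in NC (SD, n = 3), a rise of 3.18 ± 0.20 (edgeR adjusted p = 4.11e-08). Rpl21 rose by 3.00, Rpl3 by 2.87, Rps2 by 1.84 and Rps18 by 1.83. Ribosomal protein genes have processed copies elsewhere in the genome, so the assignment of their reads is uncertain. The mouse annotation names 15 pseudogenes after Rpl21, 11 after Rps2, 3 after Rpl29, 3 after Rps18 and 2 after Rpl3. Genes that were not called have named copies too, such as 24 after Rpl31 (log2 fold change 0.35) and 23 after Rps12 (-0.04). Copies under other names were not counted. The part of read assignment in these rises was not tested. Kpna2, a nuclear import receptor, and Ckb, the brain creatine kinase, rose by 2.62 each. Kpna2 was at 8.64 to 11.98 FPKM in HOMING and 48.02 to 88.02 in TUMOR.

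**Figure D4:**
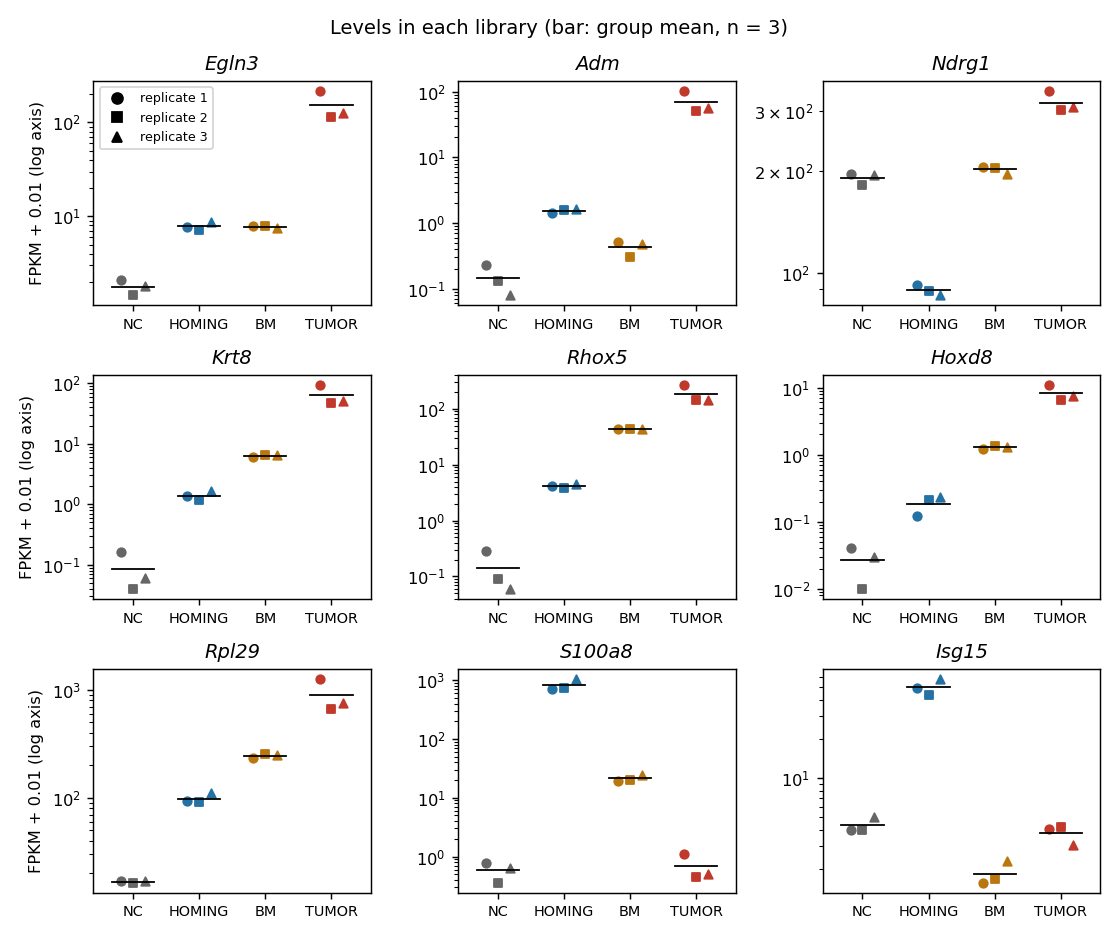
FPKM plus 0.01 (log axis) of 9 genes in each of the 12 libraries by group, with a symbol per replicate and a bar at the mean of 3. In Egln3, Adm, Ndrg1, Krt8, Rhox5, Hoxd8 and Rpl29 TUMOR replicate 1 is the highest library of all, at 215.07 FPKM for Egln3; S100a8 and Isg15 are highest in HOMING.

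The falls were led by genes of blood cells and their precursors. All 18 neutrophil genes tested fell (median log2 fold change -10.05), as did all 9 monocyte and macrophage genes, all 7 red cell genes and all 5 megakaryocyte and platelet genes (4 of the last without TUMOR replicate 1). The median log2 fold changes of the last 3 lists were -6.47, -10.18 and -3.11. Genes of the 4 lists that were under 1 FPKM in NC passed the filter only through the groups in which they were high. Of all genes tested under 1 FPKM in NC 42.1% fell. S100a8, a subunit of the neutrophil protein calprotectin, was at 706.50, 742.74 and 1053.69 FPKM in HOMING and 1.10, 0.44 and 0.50 in TUMOR, a fall of 10.26 ± 0.26 (edgeR adjusted p = 1.39e-10), and was at 0.577 ± 0.208 in NC and 21.3 ± 3.03 in BM (SD, n = 3). HOMING replicate 3 was the highest of the 3. Hbb-bt, an adult beta globin gene, was at 119.62, 113.62 and 186.21 FPKM in HOMING and had no counts in TUMOR, at least 3482-fold lower when 3 counts summed over the 3 libraries are taken as the detection floor; its near-identical neighbour Hbb-bs fell by 13.19 and by 15.17 without TUMOR replicate 1. Adgre1 (F4/80) of macrophages, Nfam1, Slamf7 and the Schlafen gene Slfn1 had no counts in TUMOR either and were at least 994.1-fold, 1087-fold, 1041-fold and 988.8-fold lower. Elane, a protease of granule precursors, was at 9.09 to 14.31 FPKM in HOMING and at 0 in 2 of 3 TUMOR libraries.

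Several white cell genes were also at or above 1 FPKM in NC and fell there. Hp (haptoglobin) was at 57.86, 51.39 and 89.85 FPKM in HOMING and 0.11, 0.07 and 0.09 in TUMOR, a log2 fold change of -9.52 ± 0.53 (edgeR adjusted p = 1.69e-08), with 1.41 ± 1.18 in NC (SD, n = 3). Camp, an antimicrobial peptide of neutrophil granules, fell by 8.08, and the inhibitory receptors Lilrb4a and Lilr4b, whose sequences are close, by 6.61 and 6.03. Il1rn, the interleukin-1 receptor antagonist, was at 83.46, 84.31 and 133.78 FPKM in HOMING and 1.18, 1.54 and 1.64 in TUMOR. The integrins and selectin ligands that fell lay mostly under 1 FPKM in NC. The leukocyte integrin chain Itgb2 fell by 4.92 and its partners Itgam and Itgal by 10.83 and 7.65. Of 15 tested 5 fell and 1, the laminin receptor chain Itga7, rose. Of the 5 falls 1 was at or above 1 FPKM in NC and 4, Itgam included, were under it.

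Interferon-stimulated genes fell as a block. Of 24 tested 22 fell and none rose, with a median log2 fold change of -3.70, and 21 fell without HOMING replicate 3. Of the 12 at or above 1 FPKM in NC 10 fell. All 12 under it fell, and these passed the filter through the groups in which they were high. Isg15, a ubiquitin-like modifier, was at 49.67, 43.24 and 57.95 FPKM in HOMING, 4.06, 4.24 and 3.07 in TUMOR, 4.35 ± 0.622 in NC and 1.84 ± 0.392 in BM (SD, n = 3), a fall of 3.74 ± 0.17 (edgeR adjusted p = 2.54e-09). HOMING thus stood above each of the other 3 groups. Irf7, the transcription factor of the late interferon response, was at 31.07, 26.92 and 41.19 FPKM in HOMING and 1.13, 0.88 and 1.19 in TUMOR, and the antiviral gene Rsad2 at 25.24, 23.56 and 38.86 and at 0.55, 1.09 and 0.77. Ifitm6, a membrane protein of the same response, was at 10.10 to 16.86 FPKM in HOMING and 0.30 to 0.54 in TUMOR. Ifit3 fell by 4.27 and the guanylate-binding proteins Gbp2 and Gbp3 by 4.06 and 3.66. The 2 not called were Ifit2 and Irf1, at -0.92 and -0.93. Of 8 Schlafen genes 5 fell and 1 rose: Slfn2 was at 44.74, 41.36 and 67.40 FPKM in HOMING and 0.95, 1.04 and 1.08 in TUMOR, and Slfn3 rose by 2.76. Of the 5 Schlafen genes that fell 3 were under 1 FPKM in NC, as was Slfn3. White cells also express many interferon-stimulated and Schlafen genes, and the part of the falling white cell markers in these counts was not tested.

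Antigen presentation followed in part, with 8 of 14 genes lower and none higher. All 7 genes under 1 FPKM in NC fell, and these passed the filter through the groups in which they were high. Of the 7 at or above it 1 fell. Tap1, the peptide transporter, fell by 2.56 and Cd74, the class II invariant chain, by 3.61, while the class I heavy chain H2-K1 was at 69.66 to 81.76 FPKM in HOMING and 48.49 to 50.58 in TUMOR and was not called. The class II chains H2-Ab1 and H2-Eb1 fell by 7.30 and 8.79, and without TUMOR replicate 3 their log2 fold changes were -8.42 and -10.65. Of 7 complement genes 4 fell, among them the central component C3 (34.14 to 52.90 FPKM in HOMING, 7.31 to 8.23 in TUMOR) and the receptor C5ar1, which fell by 10.61. Of those 4 complement genes 2 were under 1 FPKM in NC.

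Chemokines were mostly lower at the injection site. Of 9 CXC chemokine genes, counted with Cx3cl1, 7 fell and 1 rose. Of 11 CC chemokines 10 fell, or 9 without TUMOR replicate 1. Among those that fell, 3 of the 7 and 5 of the 10 were under 1 FPKM in NC. These passed the filter through the groups in which they were high. Ccl2, the main monocyte attractant, was at 1196.82, 1274.95 and 1275.26 FPKM in HOMING, 337.64, 433.32 and 432.28 in TUMOR and 795 ± 45.6 in NC (SD, n = 3), a fall of 1.64 ± 0.08 (edgeR adjusted p = 6.05e-09). Cxcl5, a neutrophil attractant, was at 628.88, 619.97 and 656.89 FPKM in HOMING, 119.02, 168.36 and 161.81 in TUMOR and 184 ± 23.5 in NC. Ccl3, which was at 0.24 ± 0.108 FPKM in NC, fell by 10.55, and by 11.46 without TUMOR replicate 1. Cx3cl1, the membrane-bound fractalkine, rose by 2.37, from 0.39 to 0.44 FPKM to 1.63 to 2.85. Cxcl12, the chemokine that holds blood stem cells in the marrow, was at 27.78 to 31.32 FPKM in HOMING and 25.99 to 35.87 in TUMOR, and Kitl at 5.88 to 6.60 and 6.26 to 7.12. Those ranges overlapped, and of 7 blood stem cell niche factors tested only Jag1 and Vcam1 fell. Without TUMOR replicate 1, or without HOMING replicate 3, 1 of the 7 fell. With limma on log2(FPKM + 1) none fell, and Jag1 was at -0.461.

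Of 15 interleukins and colony-stimulating factors 11 fell and none rose (9 without TUMOR replicate 1). Of the 11 that fell, 7 were under 1 FPKM in NC and passed the filter through the groups in which they were high. Il6 was at 17.01, 17.22 and 23.56 FPKM in HOMING, 1.65, 1.87 and 1.91 in TUMOR, 13.3 ± 2.8 in NC and 32.4 ± 2.4 in BM (SD, n = 3), so TUMOR was the low group. Il1b, Tnf and Csf3, at means of 0.08, 0.0333 and 0.1 FPKM in NC, fell by 11.42, 9.97 and 10.40; without TUMOR replicate 1 Il1b fell by 12.10, and without TUMOR replicate 2 Csf3 fell by 10.99. Of 15 NF-kB feedback and target genes 10 fell (9 without TUMOR replicate 1, 8 without HOMING replicate 3), among them Birc3, an apoptosis inhibitor (14.1 ± 2.91 FPKM in HOMING and 2.40 ± 0.352 in TUMOR, SD, n = 3), and the adhesion molecule Icam1. Mediators that restrain T cells were lower too, with 8 of 12 called. Of these 8 mediators 3 were under 1 FPKM in NC, and of the 10 NF-kB genes 2 were. Cd274 (PD-L1) was at 17.93, 17.77 and 26.23 FPKM in HOMING and 0.82, 0.70 and 0.64 in TUMOR, a fall of 4.85 ± 0.19 (edgeR adjusted p = 8.71e-10). Arg1 (arginase) fell by 7.68, and Nos2 was at 29.69 to 37.18 FPKM in HOMING and 12.06 to 14.13 in TUMOR. White cell markers fell in the same libraries, and their part in the falls of chemokines, cytokines and these mediators was not tested.

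**Figure D5:**
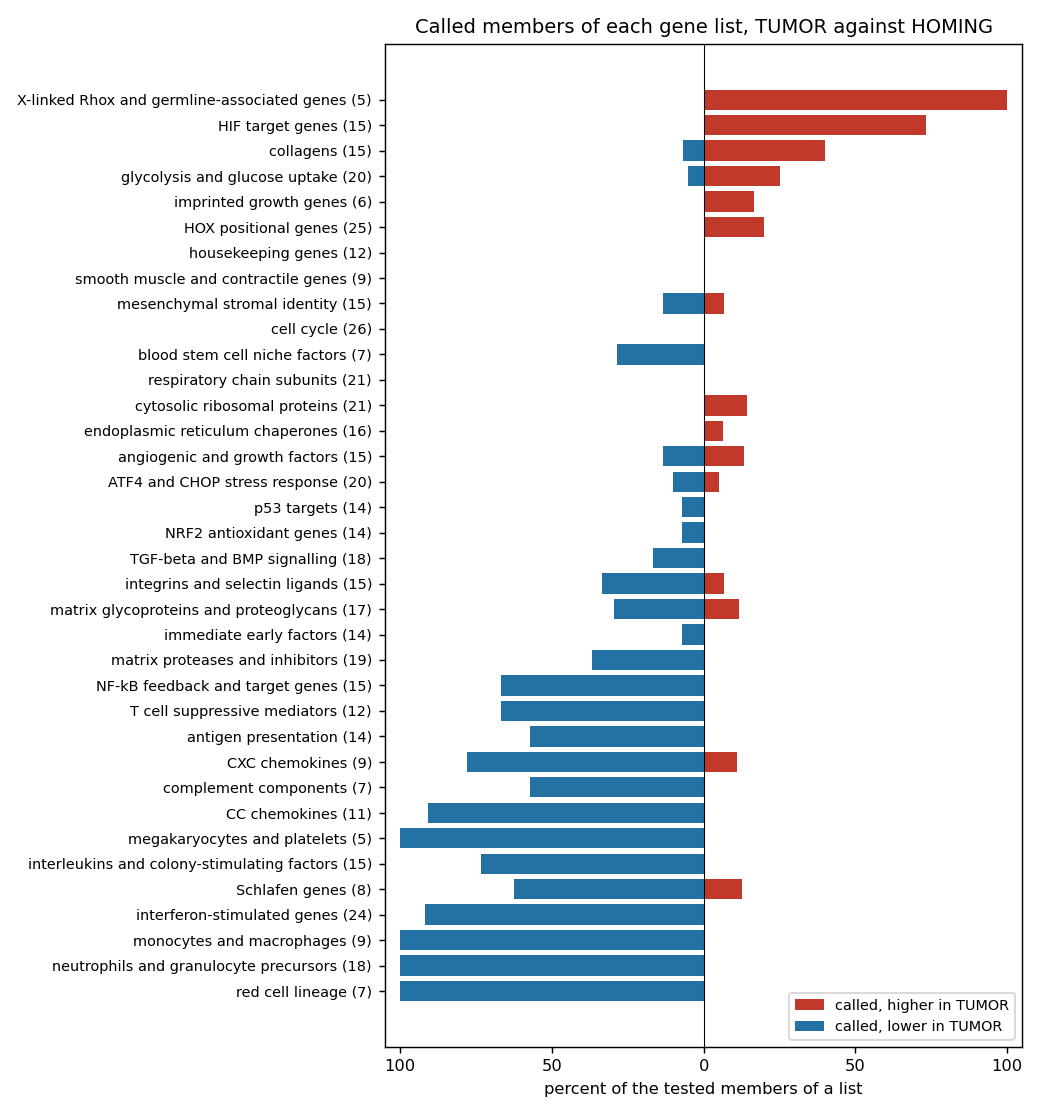
Percent of the tested members of gene lists with at least 5 tested members that were called higher (right, red) or lower (left, blue) in TUMOR, with the number tested in brackets. Blood cell and interferon lists reach far left, and HIF targets, with 11 of 15, reach far right.

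Most members of the stress and growth lists outside these groups were not called. Of all genes tested 10.8% were called, and of those at 1 FPKM or more in NC 4.93%. The shares called in the ATF4 and CHOP list and in the TGF-beta and BMP list were above both. Of 20 genes of the ATF4 and CHOP stress response 1 rose and 2 fell: Ddit4, an inhibitor of mTORC1 that is also induced by low oxygen, was at 40.03, 39.06 and 36.66 FPKM in HOMING and 106.47, 97.81 and 101.83 in TUMOR, while the cystine importer Slc7a11 and the transcription factor Cebpb fell by 2.48 and 1.12. Slc7a11 was also the only one of 14 NRF2 antioxidant genes called. Of 16 endoplasmic reticulum chaperones only Pdia6 rose, by 1.01; it stood at the 2-fold limit and was not called with DESeq2 (0.999), without a filter (0.983) or without TUMOR replicate 1 (0.84). Fos was the only one of 14 immediate early factors and Btg2 the only one of 14 p53 targets called, with falls of 2.05 and 1.46. Of 18 TGF-beta and BMP genes 3 fell, Tgfb1, Fst and Ltbp2. None of 26 cell cycle genes was called; Mki67, a marker of dividing cells, was at 69.63 to 76.17 FPKM in HOMING and 87.29 to 90.95 in TUMOR, and Pcna at 247.69 to 258.77 and 243.05 to 253.09. None of 12 housekeeping genes, 9 contractile genes, 4 IGF binding proteins, 4 adipocyte genes, 2 osteoblast genes or 2 chondrocyte genes was called, and none of the single B cell, skeletal muscle and skin genes that passed the filter; without TUMOR replicate 1, 1 contractile gene was called higher. No T or NK cell gene passed it. Of 3 endothelial genes tested Egfl7 rose by 1.79, and Pecam1 and Cdh5 fell by 3.37 and 2.36.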

How the data were processed

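RNA of sorted mouse cells was sequenced in 12 libraries, 3 per group. The authors deposited, per transcript, expected counts (estimated, need not be whole) and FPKM; Bowtie 0.12.2 and the mouse build mm8 are listed per the submitters' processing notes, and no source used here names the counting program. Both deposited values were summed per gene (an absent transcript taken as 0), giving 21001 genes; 19679 carried an Entrez number, of which 19629 matched a symbol, and the 1322 others held 2.08 to 2.649% of the counts. Library totals were 43232145 to 46166519; values near 0 rest on few counts and are imprecise.

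Rounded counts of all 12 libraries were fitted with edgeR 4.0.16 (R 4.3.3, TMM, quasi-likelihood, 4 groups, two-sided) for genes that reached 1 FPKM in 3 or more libraries; a gene was called at a Benjamini-Hochberg adjusted p under 0.05 and a log2 fold change of at least 1 in size. Tested on simulated counts for 12314 genes, the fit recovered 99% of genes changed 3-fold and 100% of those changed 6-fold. The changed genes were drawn only from genes with high counts in HOMING, so recovery of low-count genes was not tested. Alternatives used DESeq2 1.42.0, limma 3.58.1 on log2(FPKM + 1) or log2(FPKM + 0.1), other scalings, filters and splits, and each library left out. Named genes were the 8 largest rises and falls at 1 FPKM or more in NC and the 6 largest under it (no overlap of libraries, and 5 FPKM or more on average in whichever group was higher), and up to 4 members of each of 47 lists. Other genes are shown because they are members of those lists or as stated, and were chosen with their values known. The members and lists were chosen with earlier results of these data known. The result of 1 list is not reported here. Medians and counts of a list are descriptions, not tests. Promoters came from RefSeq, build GRCm38.p6, and no coordinates of the authors' build were used.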

Additional observations from a re-analysis of the deposited data

How the results depend on the processing

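The 1329 calls became 1322 with DESeq2 and 1325 with the replicate number as a block (286 and 257 higher and lower at 1 FPKM or more in NC, 254 and 528 under it). The replicate numbers were not used as pairs: deviations of same-numbered TUMOR and HOMING libraries correlated at -0.076, 0.066 and -0.12, and not every library correlated best with its own number. With limma on log2(FPKM + 1), 168 and 163 genes rose at and under the split; on that scale changes of low genes are smaller by construction. Without a filter 2702 genes were called, 875 higher and 1287 lower under 1 FPKM in NC, since more low genes were tested. With no minimum fold 6776 were called, 3033 higher and 2776 lower at 1 FPKM or more in NC and 399 higher under it; with a log2 minimum of 2 there were 723, with 33, 75 and 156 in those classes. With the split at 5 FPKM, 116 rose and 120 fell above it and 428 rose below it. Leaving out each library in turn gave 1209 to 1426 calls, with 223 to 335 higher and 230 to 294 lower at 1 FPKM or more in NC, and 229 to 269 higher and 515 to 531 lower under it. Of the 129 named called genes, 13 lost the call in at least 1 of the 16 settings and none changed sign. Among them were Alcam (-0.695), Has2 (-0.798), Cdh5 (-0.417) and Jag1 (-0.461), each with limma on log2(FPKM + 1). Of 31 named genes that were not called, 6 changed sign near 0: Ebf1 (0.13) and Tpm1 (0.012) with the main transcript alone, Rrm2 without the filter (-0.002), and, over the settings with a library left out, Lpl (-0.145 to 0.013), Acan (-0.173 to 0.108), Tpm1 (-0.071 to 0.02), Cox6c (-0.077 to 0.01) and Rrm2 (-0.045 to 0.066). The cause was not tested. The share of called genes that were higher was 40.93%, and 33.91% with limma on log2(FPKM + 1).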

Other observations

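Some called genes lay side by side on a chromosome. Among tested genes in chromosome order, runs of at least 4 neighbours called in the same direction numbered 2 for rises and 17 for falls. Of all genes tested 10.8% were called, and the number of runs expected at that share was not worked out. The rising runs were the 5 HoxD genes and the 4 Rhox genes Rhox2d, Rhox2g, Rhox2h and Rhox5. Falling runs held families of immune genes, among them 8 genes from Stfa2l1 to Cd86 (cystatin-like stefins and a co-stimulatory receptor), 6 C-type lectin genes from Clec4a1 to Clec4e, 6 chemokine genes from Cxcl5 to Cxcl2, 5 guanylate-binding protein genes and 5 matrix metalloprotease genes from Mmp13 to Mmp8. Family members share sequence, so the split of reads among them is uncertain, and the runs were picked out after the calls were known.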
